A study of Mus musculus with 8 samples.

Results

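The Kruppel-like factors are a family of zinc finger transcription factors that bind GC-rich and CACCC-type sequences, and 10 of them (Klf2, Klf3, Klf4, Klf5, Klf6, Klf9, Klf10, Klf11, Klf13 and Klf15) were followed here by gene symbol. All 10 members were found among the 54532 genes in the authors' deposited FPKM. These divide the fragments of a gene by its length in kilobases and by a library size scaled before deposition. Livers of 4 METTL3-HKD mice, in which albumin-iCre deletes a floxed METTL3 allele (flox/-) in hepatocytes, were compared with livers of 4 METTL3-Flox mice (flox/flox), called HKD and Flox livers from here on. Both groups had gone through 1 h of partial warm ischemia and 6 h of reperfusion, so no uninjured liver is part of the comparison. METTL3 is the catalytic subunit of the complex that writes m6A onto mRNA, and the METTL3-HKD mice are heterozygous animals with reduced rather than absent METTL3. The Flox animals are littermates from the crosses, on a C57BL/6 background, the loxP sites flank exon 4 and each library is a separate mouse, so p-values measure the spread between these mice. The age of the sequenced mice is not given in the sources used here.

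The members divide the work of the family by tissue and signal. Klf2 and Klf4 keep endothelium quiescent under blood flow, Klf6 is a factor of tissue injury first known from activated stellate cells, and Klf10 and Klf11 are early targets of TGF-beta. Klf9 and Klf15 are raised by glucocorticoids, and Klf15 directs the breakdown of amino acids during fasting. Klf3 is a repressor that recruits CtBP, Klf13 is best known from T cells, and Klf5 serves epithelia with rapid turnover.

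Upstream sequences of 8 members were in the RefSeq table of GRCm38.p6, and those of Klf5 and Klf10 were not used here. The window runs from 250 to 11 bases before the RefSeq start, 240 bases in all. The 4 shown belong to the 2 tested members with the largest log2 fold change in each direction and lie outside the deposited gene bounds. Capitals mark the E-box CACGTG, the same on both strands, bound by many helix-loop-helix factors, those of the circadian clock among them.
Klf6, chr13:5861239-5861478, plus strand: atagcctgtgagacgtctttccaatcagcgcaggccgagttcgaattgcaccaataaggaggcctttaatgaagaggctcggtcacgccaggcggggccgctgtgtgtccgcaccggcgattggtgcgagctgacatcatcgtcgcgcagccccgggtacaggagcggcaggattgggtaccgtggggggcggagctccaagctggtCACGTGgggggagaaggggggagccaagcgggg
Klf4, chr4:55532486-55532725, minus strand: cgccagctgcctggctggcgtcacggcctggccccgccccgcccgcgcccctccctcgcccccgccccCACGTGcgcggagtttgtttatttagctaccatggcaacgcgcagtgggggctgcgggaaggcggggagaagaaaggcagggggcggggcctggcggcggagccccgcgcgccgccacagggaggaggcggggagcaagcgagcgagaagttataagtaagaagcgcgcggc
Klf15, chr6:90462326-90462565, plus strand: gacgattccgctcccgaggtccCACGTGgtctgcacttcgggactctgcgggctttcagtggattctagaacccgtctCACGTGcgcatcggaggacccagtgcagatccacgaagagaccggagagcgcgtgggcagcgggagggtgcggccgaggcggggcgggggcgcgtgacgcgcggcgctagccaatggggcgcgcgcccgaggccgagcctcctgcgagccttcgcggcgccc
Klf9, chr19:23140976-23141215, plus strand: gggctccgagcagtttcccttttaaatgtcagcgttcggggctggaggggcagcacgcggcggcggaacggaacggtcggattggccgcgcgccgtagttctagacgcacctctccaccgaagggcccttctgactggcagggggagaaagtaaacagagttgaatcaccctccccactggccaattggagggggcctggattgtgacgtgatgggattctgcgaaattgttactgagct

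The E-box was present in the windows of Klf4, Klf6, Klf11 and Klf15, that is, in 4 of 8 members, against 5.69% of 32851 RefSeq promoter windows of the same length. Klf15 held 2 copies, at 228 and 172 bases before the start, and Klf6 held its copy 43 bases before the start. The windows of the members were rich in G and C, from 59.6% in Klf9 to 78.3% in Klf3, against a median of 52.1% over all windows. The shares over all windows are thus not matched to the members in base content. The GC box GGGCGG, searched on both strands, occurred in 7 of the 8 windows and was found in 31.3% of all windows. TGACG, the half-site of the cyclic AMP response element, was found in Klf2, Klf4, Klf9, Klf13 and Klf15, against 16.9% of all windows. CCAAT was found in Klf6, Klf9, Klf11, Klf13 and Klf15 (33.0% of all windows). CACCC was found in Klf2, Klf3, Klf9, Klf13 and Klf15 (50.6% of all windows). The AP-1 site TGANTCA was found in Klf9 alone among the 8, against 6.58% of all windows, and the serum response element known as the CArG box was found in none of the 8, against 1.44%. Klf4 and Klf6, higher in HKD livers, and Klf15, lower in them, all held the E-box letters, which are a description of sequence and not of binding.

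Whole reads could be rebuilt from the FPKM, and each liver had between 15861245 and 18434488 reads on genes. Mettl3 itself ranged from 1.17 to 1.56 FPKM in HKD livers and from 1.16 to 1.84 FPKM in Flox livers, with overlapping groups (adjusted p = 0.556 from limma). The whole-gene value does not check the genotype labels, since loss of exon 4 need not lower the reads on the rest of the gene. Albumin mRNA lay between 15100 and 22100 FPKM in all 8 livers, as in liver tissue. The test was limma on log2(FPKM + 0.1), two-sided, for the 16645 genes whose mean reached 0.1 FPKM, with Benjamini-Hochberg adjustment over all of them. Log2 fold changes are on that scale, which understates the change of low genes.

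In HKD livers, Klf6 and Klf4 were upregulated and Klf15, Klf9 and Klf13 were downregulated, while Klf2, Klf3, Klf10 and Klf11 were not past the adjusted threshold of 0.05. Klf5 fell below the minimum level and was not tested. Of the 9 members tested, 2 were higher, where 9.05% of all tested genes were, and 3 were lower, where 6.63% of all tested genes were. Thus 5 of 9 were called, against 15.7% of all tested genes in either direction, and 6 of 9 had an unadjusted p under 0.05, against 31.9%. With an absolute log2 fold change of at least 1 as a further threshold, Klf6 and Klf4 remained on the higher side (4.70% of all genes) and Klf15 on the lower side (1.52% of all genes). All HKD livers lay above all Flox livers in 3 of the 9 members (Klf3, Klf4 and Klf6), against 12.7% of all tested genes, and below them in another 3 (Klf9, Klf13 and Klf15), against 9.95%, so that 6 of 9 were separated, against 22.6%. The members, and the gene lists further on, were chosen with earlier results of these data known. Their counts beside the shares of all tested genes are therefore descriptions and not tests. With members called in both directions, the median log2 fold change of the 9 was 0.04, against 0.00 over all tested genes. In bulk liver, a change in the number of cells that express a gene and a change in RNA per cell cannot be told apart.

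**Figure D1:**
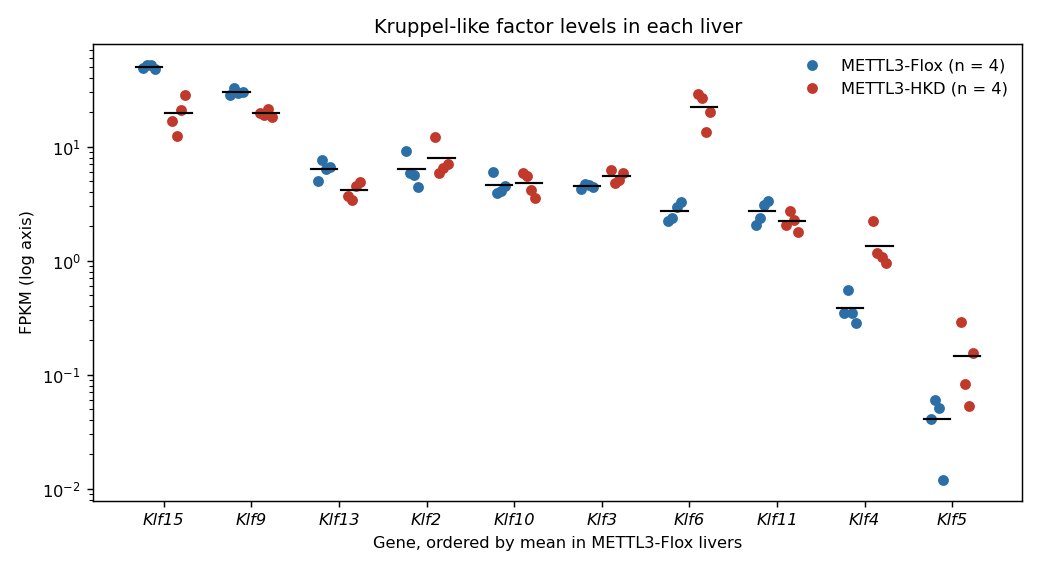
FPKM of the 10 Kruppel-like factors in each liver on a log axis, with Flox livers in blue, HKD livers in red and the group mean as a black line (n = 4 per group). Klf6 and Klf4 lie higher in every HKD liver, and Klf15, Klf9 and Klf13 lie lower in every one.

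Klf6, on chromosome 13 of GRCm38 from 5861482 to 5870394 on the plus strand, showed the largest difference among the members. Its level was 29.0, 26.5, 13.3 and 19.9 FPKM in HKD livers 1 to 4, and 2.24, 2.38, 2.97 and 3.24 FPKM in Flox livers 1 to 4. The groups were far apart, and even HKD liver 3, the lowest of its group, stood well above the highest Flox liver. The means were 22.2 ± 7.07 and 2.71 ± 0.473 FPKM (SD, n = 4), an 8.19-fold difference. Its log2 fold change was 2.94 (standard error 0.240, adjusted p = 0.00105 from limma), and the exact permutation test gave p = 0.0286, the smallest that 4 against 4 livers allow. These values rest on 1051 to 2559 reads per HKD liver and on 140 to 229 reads per Flox liver.

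Klf4, a factor of endothelium, monocytes and epithelia, lies on chromosome 4 from 55527143 to 55532466 on the minus strand. It had 2.22, 1.17, 1.07 and 0.953 FPKM in HKD livers 1 to 4 against 0.346, 0.548, 0.345 and 0.285 FPKM in Flox livers 1 to 4. The groups did not overlap, and HKD liver 1 stood above the other 3 of its group. The mean rose from 0.381 ± 0.115 to 1.35 ± 0.583 FPKM (SD, n = 4), with log2 fold change 1.55 (SE 0.279, adjusted p = 0.0108 from limma). Only 14 to 27 reads per Flox liver and 54 to 136 reads per HKD liver stand behind these values, the thinnest depth among the members that were called.

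Klf15 is on chromosome 6 from 90462576 to 90475238 on the plus strand and was the most abundant member in Flox livers. It had 16.6, 12.3, 21.1 and 28.3 FPKM in HKD livers 1 to 4, and 48.6, 52.1, 51.4 and 47.7 FPKM in Flox livers 1 to 4. The Flox livers were nearly alike, with a coefficient of variation of 4.23%, whereas the HKD livers were spread over a wide range (34.8%) that ended well below them. The mean went from 49.9 ± 2.11 to 19.6 ± 6.81 FPKM (SD, n = 4), 2.55-fold lower, with log2 fold change -1.41 (SE 0.218, adjusted p = 0.00679 from limma).

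Klf9, on chromosome 19 from 23141226 to 23166911, changed less but with little spread. Its HKD livers 1 to 4 had 19.8, 18.8, 21.5 and 18.2 FPKM, and its Flox livers 1 to 4 had 28.4, 32.6, 29.5 and 30.3 FPKM. All HKD livers sat below all Flox livers, 19.6 ± 1.43 against 30.2 ± 1.77 FPKM (SD, n = 4). The log2 fold change was -0.63 (standard error 0.0853, adjusted p = 0.00443 from limma). The deposited FPKM of Klf9 uses a length of 3263 bases, against 4815 exon bases in GENCODE M21, so its level relative to other members depends on the annotation, and its values on another gene model were not computed.

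Klf13, on the minus strand of chromosome 7 from 63886351 to 63938915, was lower to about the same extent. HKD livers 1 to 4 had 3.71, 3.40, 4.55 and 4.93 FPKM, and Flox livers 1 to 4 had 4.97, 7.66, 6.30 and 6.64 FPKM. The groups only just failed to meet, at HKD liver 4 and Flox liver 1, and no exon base of Klf13 is shared with the genes on the opposite strand that overlap it. The means were 4.15 ± 0.713 and 6.39 ± 1.11 FPKM (SD, n = 4), with log2 fold change -0.61 (SE 0.163, adjusted p = 0.0368 from limma). This call was not held under 9 of the 15 alternatives, with adjusted p between 0.0241 and 0.142 over all of them. Among those 9 were the fits without HKD liver 1 or 2, and without Flox liver 2, 3 or 4.

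**Figure D2:**
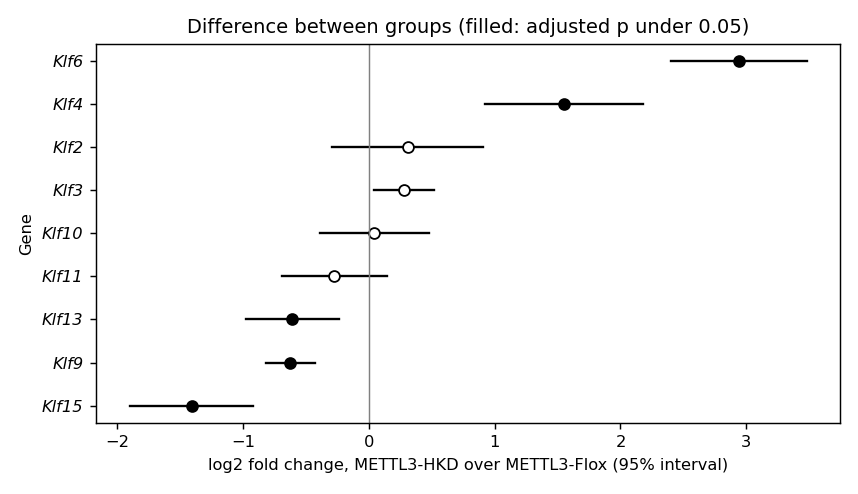
Log2 fold change of HKD over Flox livers with its 95% interval from limma for the 9 tested members. Filled points passed the adjusted threshold, from Klf15 at -1.41 to Klf6 at 2.94, and open points did not.

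Klf3, the repressor on chromosome 5 from 64803388 to 64832901, had 6.20, 4.75, 5.12 and 5.86 FPKM in HKD livers 1 to 4 and between 4.24 and 4.65 FPKM in Flox livers. Every HKD liver was thus higher, by a small margin (exact permutation test, p = 0.0286). The log2 fold change was 0.28, with a 95% interval from 0.04 to 0.52, and it missed the threshold over all genes (adjusted p = 0.107 from limma). With libraries scaled to their reads on genes, it was 0.49 with an adjusted p of 0.0403, and the median of all genes moved by 0.19 in the same direction.

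Klf2, the flow-induced endothelial factor on chromosome 8 from 72319033 to 72321656, had 12.0, 5.89, 6.47 and 7.05 FPKM in HKD livers 1 to 4 and 9.22, 5.90, 5.59 and 4.44 FPKM in Flox livers 1 to 4. The groups overlapped, with liver 1 the highest in each, and 3 of the 4 HKD livers were within the Flox range. The log2 fold change was 0.31, and its 95% interval from -0.29 to 0.91 leaves room for a difference in either direction (adjusted p = 0.464 from limma). The ratio of Klf4 to Klf2, which does not depend on how libraries are scaled, was 0.135 to 0.199 in HKD livers and 0.0375 to 0.0929 in Flox livers. This ratio and those given further on were chosen after the values had been seen.

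The pair induced by TGF-beta was not called. Klf10 had 5.84, 5.55, 4.19 and 3.55 FPKM in HKD livers 1 to 4 and 5.98, 3.92, 4.05 and 4.50 FPKM in Flox livers 1 to 4, nearly the same mean (log2 fold change 0.04, 95% interval -0.39 to 0.48, adjusted p = 0.905 from limma). Klf11 had 1.79 to 2.71 FPKM in HKD livers and 2.03 to 3.32 FPKM in Flox livers (log2 fold change -0.28, 95% interval -0.69 to 0.14, adjusted p = 0.339 from limma). For both, 3 of the 4 HKD livers were within the range of the Flox livers. The interval of Klf10 does not reach the size of the Klf4 or Klf6 difference.

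Klf5, the epithelial member, had a mean of 0.0926 FPKM over the 8 livers, just under the minimum of 0.1. Its level was 0.287, 0.0832, 0.0532 and 0.155 FPKM in HKD livers 1 to 4 and between 0.0119 and 0.0595 FPKM in Flox livers. It rests on 5 to 30 reads and 1 to 5 reads per liver, and the groups overlapped in 1 HKD liver (exact permutation test, p = 0.0571). In a fit with no minimum, its log2 fold change was 0.72 with an adjusted p of 0.198 from limma.

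The order of the members by FPKM, a scale per gene length, changed at the top. In Flox livers, Klf15 led with 49.9 FPKM, followed by Klf9 with 30.2 FPKM, with no overlap between them or with the members that followed. Klf13, Klf2, Klf10 and Klf3 came next, from 6.39 down to 4.48 FPKM, and each of these overlapped its neighbour in range. Klf6 and Klf11 shared a mean of 2.71 FPKM, Klf4 stood apart at 0.381 FPKM and Klf5 was last. In HKD livers, Klf6 (22.2 FPKM), Klf9 (19.6 FPKM) and Klf15 (19.6 FPKM) were at the top with overlapping ranges, and no order among these 3 was larger than the spread between livers. By mean, Klf6 was at rank 7 of 10 in Flox livers and at rank 1 in HKD livers.

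The summed FPKM of the 10 members was 87.3 ± 8.48 in HKD livers and 108 ± 3.19 in Flox livers (SD, n = 4). The difference in this sum depends on how libraries were scaled before deposition, whereas shares and ratios within a liver do not. It was not recomputed with libraries scaled to their reads on genes. Klf6 made up 16.7% to 32.7% of that sum in HKD livers and 2.11% to 3.09% in Flox livers. Klf15 made up 15.2% to 31.2% and 45.5% to 47.6% in the same order. The shares of Klf15 in the Flox group were close to one another, whereas HKD livers 1 and 2 had less Klf15 and more Klf6 than livers 3 and 4. The ratio of Klf6 to Klf15 within a liver was 1.75, 2.15, 0.629 and 0.705 in HKD livers 1 to 4, and between 0.0457 and 0.0679 in Flox livers. The ratio of Klf15 to Klf9, the glucocorticoid-induced pair, was 0.657 to 1.55 against 1.57 to 1.74, so that Klf15 was lower than Klf9 in 3 of the HKD livers and in none of the Flox livers on these gene lengths.

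**Figure D3:**
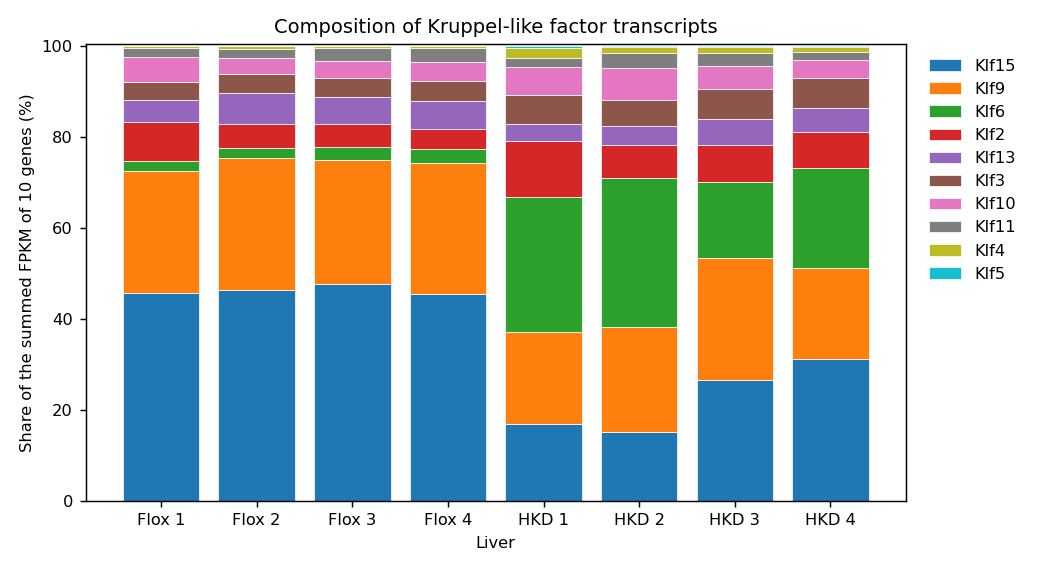
Share of each of the 10 members in their summed FPKM, in percent, as stacked bars for the 8 livers. Klf6 (green) takes up at most 3.09% in Flox livers and at least 16.7% in HKD livers, while Klf15 (blue) takes up at least 45.5% in Flox livers and at most 31.2% in HKD livers.

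HKD liver 1 had the highest value of its group in 6 of the 10 members (Klf2, Klf3, Klf4, Klf5, Klf6 and Klf10). The share of all tested genes that were highest in HKD liver 1 was not computed, so this count is a description only. The same liver had the highest summed level of the neutrophil markers, given with the other markers further on. Klf15, in contrast, was highest in liver 4 and lowest in liver 2.

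Of the 16 remaining Klf and Sp genes listed, 9 passed the minimum level, none was higher and Klf12, a repressor of the family, was lower, where 6.63% of all tested genes were. Klf12 had 2.17 to 2.42 FPKM in HKD livers and 2.63 to 4.70 FPKM in Flox livers (log2 fold change -0.63, SE 0.172, adjusted p = 0.0398 from limma), and this call was not held under 11 of the 15 alternatives. At an unadjusted p under 0.05 there were 2 of these 9 genes, against 31.9% of all tested genes, and Klf17, Sp6 and Sp8 were listed at 0 in all livers. Leaving out any HKD liver, or Flox liver 2, 3 or 4, ended the call of Klf12, and its adjusted p was 0.0156 to 0.195 over all alternatives. The median log2 fold change of the list was 0.04.

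Since METTL3 writes m6A chiefly within a motif of which GGACT is a common form in the letters of the annotation, that motif was counted in the lowest-numbered coding transcript of each member (GENCODE M21, coding strand only). Klf6 had 8 copies, 3 of them coding and 5 in the 3′ UTR, or 1.89 per kilobase, at percentile 84.4 among the transcripts of 13104 tested genes. Klf4 had 5 copies (1.65 per kilobase) and Klf15 had 1 copy (0.421 per kilobase), against a median of 1.07 per kilobase. Klf13 and Klf9, both lower in HKD livers, were near that median with 1.09 and 1.11 per kilobase, and of the members not called, Klf11 had 5 copies (1.22 per kilobase) and Klf2, Klf3 and Klf10 had 1 copy each. Klf5, not tested, had 3 copies. No m6A was measured in these livers, and a match of letters does not show that a site is methylated. A coding copy of Klf6 and of Klf4 and the single copy of Klf15, which is in the 3′ UTR, are shown with the motif in capitals.
Klf6, chr13:5864921-5864941, plus strand: cccccagaGGACTctctgatc
Klf4, chr4:55530145-55530165, minus strand: ccccaccaGGACTacccctac
Klf15, chr6:90474969-90474989, plus strand: cctcatcaGGACTagaaatta

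Genes tied to Klf2 and Klf4 in endothelium were read next. Of 8 genes that these factors are known to raise, 3 were higher, 1 was lower and 4 were not called, where 9.05% of all tested genes were higher and 6.63% lower, with a median log2 fold change of 0.45. Procr and Thbd, receptors of the protein C anticoagulant pathway, had log2 fold changes of 2.56 and 2.03 (adjusted p = 0.00157 and 0.00707 from limma). Hmox1, heme oxygenase, which is also induced in other liver cells, had 1.43 (adjusted p = 0.00529 from limma). Cxcl12, a chemokine, was lower with -0.81 (adjusted p = 0.0240 from limma), a call not held without HKD liver 2 or Flox liver 2 or 3 (adjusted p up to 0.0730). Nos3, the endothelial nitric oxide synthase and a classical target of Klf2, was named after its values were seen, and had 1.42 ± 0.359 against 0.963 ± 0.233 FPKM (SD, n = 4, adjusted p = 0.139 from limma).

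Of 8 genes of endothelial activation that Klf2 is known to restrain, 6 were higher (9.05% of all tested genes) and 2 were not called, with a median log2 fold change of 1.93. Angpt2, Sele and Edn1, which encode angiopoietin-2, E-selectin and endothelin-1, had log2 fold changes of 4.23, 3.60 and 1.82 (adjusted p = 0.00339, 0.00224 and 0.00230 from limma). Their Flox values rest on only 3 to 27, 2 to 9 and 5 to 8 reads per liver. Over the alternatives the log2 fold changes were 2.48 to 4.8, 1.56 to 4.61 and 0.69 to 2.2. The 2 not called were Vcam1 and Icam1, named after their values were seen. They had log2 fold changes of 0.35 and 0.45 (adjusted p = 0.468 and 0.0751 from limma). The HKD livers were above all Flox livers in 6 of these 8 genes, against 12.7% of all tested genes in that direction.

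Klf10 and Klf11, early targets of TGF-beta, were not called. Of 14 genes of that pathway, 9 were higher and none was lower, where 9.05% of all tested genes were higher and 6.63% lower. The median log2 fold change of this list was 0.65. Among its targets and regulators, Tgif1 and Skil, which restrain Smad activity, had log2 fold changes of 1.37 and 0.82, and Ctgf, a matrix-associated target, had 1.43 (adjusted p = 0.0111, 0.0176 and 0.0261 from limma). The call of Ctgf was not held without HKD liver 1, 2 or 4 or without Flox liver 2, 3 or 4, and that of Skil not without HKD liver 1 or Flox liver 4, with adjusted p up to 0.0699 and 0.0560.

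Besides Klf9 and Klf15, 12 genes that respond to glucocorticoids were read, and none was lower past the threshold. Whether glucocorticoid signalling differed between the groups was not tested. Dusp1 and Cdkn1a were higher, at log2 fold changes of 1.72 and 2.59 (adjusted p = 0.0219 and 0.0229 from limma), where 9.05% of all tested genes were higher, and 3 of the 12 had an unadjusted p under 0.05, against 31.9% of all tested genes. Dusp1, a MAPK phosphatase, and Cdkn1a, a cell cycle inhibitor, are induced by stress as well. Neither call was held without HKD liver 2 or Flox liver 4, nor was that of Cdkn1a without HKD liver 1 or Flox liver 3, nor that of Dusp1 without Flox liver 2, with adjusted p up to 0.0633 for Dusp1 and 0.0741 for Cdkn1a. Tsc22d3, the glucocorticoid-induced leucine zipper gene, was named after its values were seen, and had 7.65 to 21.7 against 24.2 to 35.2 FPKM, with no overlap (log2 fold change -1.03, adjusted p = 0.0532 from limma, 0.0353 to 0.146 over the alternatives). Like Klf15, it was lowest in HKD liver 2 and highest of its group in liver 4. Per1, Tat and Pck1 of the list, also named after their values were seen, shared these extremes and were not called. They had log2 fold changes of 0.08, -0.68 and -0.4 (adjusted p = 0.909, 0.376 and 0.254 from limma). The median over the list was -0.22.

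Amino acid breakdown, the pathway served by Klf15 in liver, gave 1 lower gene of 12, where 6.63% of all tested genes were lower, and no higher one, with a median log2 fold change of -0.34. The lower gene was Cth, the cystathionine gamma-lyase gene, with 35.1 ± 7.09 against 58.8 ± 3.77 FPKM (SD, n = 4), with log2 fold change -0.76 (adjusted p = 0.0117 from limma). In 3 of the 12 genes all HKD livers lay below all Flox livers, against 9.95% of all tested genes in that direction. Prodh, the proline dehydrogenase gene and a known target of Klf15, was named after its values were seen, and its log2 fold change was -0.66 (adjusted p = 0.0610 from limma, 0.0461 to 0.136 over the alternatives). Got1, of the same list and also named after its values were seen, went the other way to a like extent. Its log2 fold change was 0.70 (adjusted p = 0.0664 from limma). Of 8 genes of glucose production, Hnf4a alone was lower, against 6.63% of all tested genes (log2 fold change -0.48, adjusted p = 0.0187 from limma), and none was higher. That call was not held without Flox liver 3 or 4, with the replicate block or with scaling to the reads on genes (adjusted p up to 0.191).

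**Figure D4:**
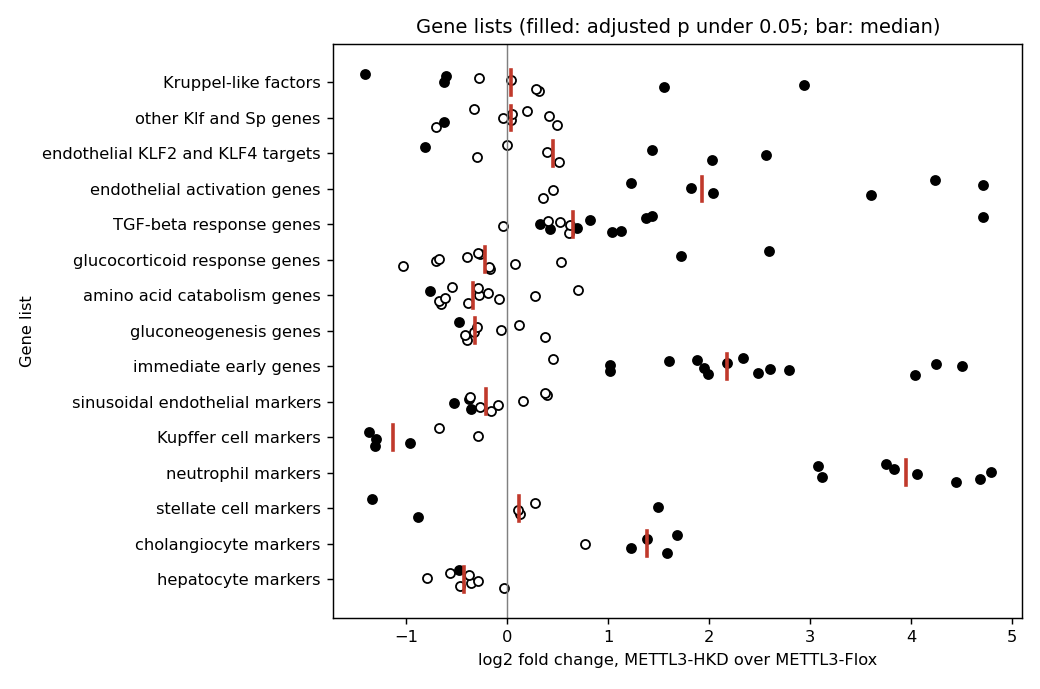
Log2 fold change of HKD over Flox livers for the tested genes of each list, with filled points past the adjusted threshold, open points not past it and a red bar at the median. The Kruppel-like factors extend from -1.41 to 2.94, and the neutrophil markers have the highest median of the lists, 3.95.

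Immediate early genes, the class that includes Klf4 and Klf6 in many cell types, were higher in 14 of 15 listed genes, against 9.05% of all tested genes, with a median log2 fold change of 2.18. Atf3, Fos, Egr1 and Ier3 had log2 fold changes of 4.50, 4.04, 2.79 and 4.24 (adjusted p = 0.000589, 0.00112, 0.00112 and 0.00190 from limma). The remaining gene was not called.

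Markers of cell types moved with the groups as well, and are to be read against 9.05% of all tested genes higher and 6.63% lower. All 8 neutrophil markers were higher, and their summed level was 334 to 1630 FPKM in HKD livers and 13.0 to 44.9 FPKM in Flox livers, with Csf3r, S100a9, Cxcr2 and S100a8 at log2 fold changes of 3.12, 4.68, 4.06 and 4.44. Of 5 cholangiocyte markers, 4 were higher (119 to 369 against 52.5 to 77.6 FPKM in sum), among them Spp1 and Krt19 with 1.68 and 1.58. Spp1 alone, at 109 to 355 against 46.4 to 73.5 FPKM, makes up most of that sum. Of 6 Kupffer cell markers, 4 were lower (62.6 to 140 against 140 to 346 FPKM in sum), namely Vsig4, Cd5l, Timd4 and Clec4f. Sinusoidal endothelial markers gave 3 lower genes of 10, Oit3, Gpr182 and Stab1, with summed levels of 83.5 to 95.5 against 91.4 to 103 FPKM. Among the 7 not called, Pecam1, Cdh5 and Lyve1 went the other way and were named after their values were seen. Their log2 fold changes were 0.39, 0.37 and 0.16 (adjusted p = 0.0729, 0.175 and 0.673 from limma). All HKD livers lay above all Flox livers in 1 marker of the list, Pecam1, against 12.7% of all tested genes.

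Stellate cell markers were mixed, with Des higher and Colec11 and Lrat lower among 6, and sums of 36.8 to 46.9 against 38.1 to 67.8 FPKM. Of 8 hepatocyte markers, Hnf4a was lower, and the sums were 22100 to 32500 against 28800 to 33000 FPKM. Albumin, with a log2 fold change of -0.03, makes up most of these sums, whereas the median of the hepatocyte list was -0.42. No marker of these lists was at 0 in all 8 livers. The part of neutrophils, Kupffer cells and the other cell types in the levels of Klf6, Klf4, Klf15, Klf9 and Klf13 was not tested. The calls of Clec4f, Cd5l, Vsig4, Timd4, Gpr182, Stab1, Des, Lrat, Krt7 and Sox9 were each lost under at least 6 alternatives, that of Krt19 without Flox liver 3 and under the block, that of Oit3 under the scaling and that of Colec11 under the block.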

How the data were processed

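Liver RNA of 4 METTL3-HKD and 4 METTL3-Flox mice was sequenced 6 h after reperfusion that followed 1 h of ischemia. The authors deposited FPKM for 54532 genes with the gene length in bases, on GRCm38 (mm10) per the labels. The aligner, counting and strand setting are not given in the sources used here. FPKM times length and an effective library size gave whole reads (within 0.001) for 100% of non-zero values, so libraries had been scaled before deposition. The effective sizes were 18063236 to 20114825 in HKD livers and 14210943 to 16158035 in Flox livers. Depth was 15861245 to 18434488 reads per liver, which limits precision by counting error.

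The 16645 genes whose mean reached 0.1 FPKM were compared on log2(FPKM + 0.1) with limma 3.58.1 (mean-variance trend) in R 4.3.3, and single values by exact permutation over 70 arrangements in Python 3.11.15. The fit was tested on simulated data. Alternatives were a pseudocount of 1 FPKM, a minimum of 1 FPKM or none, scaling to reads on genes, voom on rebuilt reads, no trend, a replicate block and leaving out each liver.

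The members and lists were chosen with earlier results of these data known. Named genes were the members, Mettl3, at most 4 called genes per list with the smallest adjusted p, and the 3 genes most like the members with the largest change in each direction. Nos3, Tsc22d3, Prodh, Got1, Pecam1, Vcam1, Icam1, Cdh5, Lyve1, Per1, Tat and Pck1 were added after their values were seen. A gene that this rule names is not reported here.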

Additional observations from a re-analysis of the deposited data

How the results depend on the processing

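Klf6, Klf4, Klf15 and Klf9 kept their direction and their call under all alternatives in which they were tested, with log2 fold changes from 2.60 to 3.17, 0.74 to 1.77, -1.61 to -1.20 and -0.67 to -0.41. Over the 9 tested members, 120 of 134 recomputed values kept direction and side of the threshold. The count of higher members, 2, became 1 with a minimum mean of 1 FPKM, which left Klf4 untested, and 3 when scaled to total reads on genes, which added Klf3 (log2 fold change 0.49). That scaling moved the median of all genes by 0.19 and gave 13.8% of genes higher and 2.25% lower, against 9.05% and 6.63%. With single livers left out, the count of higher members was 2 to 2 and of lower members 2 to 3, as Klf13 was lost in 5 of these fits. Klf10, near 0 in the main comparison, was between -0.06 and 0.17 with single livers left out, turning to -0.06, -0.04, -0.03 and -0.01 without METTL3-HKD liver 1, METTL3-HKD liver 2, METTL3-Flox liver 2 and METTL3-Flox liver 3. With the replicate number as a block, 2 members were higher and 2 lower. Deviations of same-numbered livers correlated between -0.084 and 0.071 over genes, so no pairing by number was seen over all genes. A correlation over all genes cannot exclude pairing in single genes. The block lowered the standard error of Klf2 from 0.266 to 0.133 and raised that of Klf9 from 0.0853 to 0.102. The fit has 4 livers per group, and the 14 to 27 reads of Klf4 per METTL3-Flox liver limit the precision of its fold change.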

Other observations

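The genes whose levels over the 8 livers were most like those of Klf6 and Klf15 were sought among 10693 other genes whose mean reached 1 FPKM, by the mean absolute difference of log2(FPKM + 0.1) after centring each gene on its own mean. For Klf6 these were Sema4d, a semaphorin, Tnfrsf12a, the receptor of TWEAK, and Egr1, an immediate early factor, with mean differences of 0.212, 0.247 and 0.249 (log2), against a median of 1.48 over all candidates. All 3 were lowest among HKD livers in liver 3, as Klf6 was. Tnfrsf12a had 67.2, 72.8, 27.9 and 43.8 FPKM in HKD livers 1 to 4 and 5.96 to 11.4 FPKM in Flox livers, a log2 fold change of 2.53. Sema4d had 1.39 to 3.08 against 0.137 to 0.266 FPKM, and its log2 fold change was 2.76.

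For Klf15 the nearest were Tmie, Gm6166 and Col5a3, with mean differences of 0.150, 0.157 and 0.166 (log2), against a median of 0.708. Tmie had 0.852, 1.14, 1.57 and 1.84 FPKM in HKD livers 1 to 4 and 3.53 to 4.15 FPKM in Flox livers. Col5a3, a collagen chain gene, had 0.405 to 0.699 against 1.55 to 2.21 FPKM. Gm6166 rests on 3 to 15 reads per liver. These neighbours were selected for their likeness over the same livers, so their differences between groups are a description without a test.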
